A study of Mus musculus with 8 samples.

Results

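The Ifi200 genes encode interferon-inducible DNA-binding proteins of the PYHIN family, and Trex1 encodes the main DNA exonuclease of the mammalian cytosol. The genes described here are Ifi203, Ifi204, Ifi205, Aim2 and Trex1, 5 in all, and they were taken as every array probe that the platform annotation gives to these symbols. That rule found 6 probes of 4 genes (Aim2 and Ifi204 with 1 probe each, Ifi205 and Trex1 with 2 each) among 25697 probes and 16593 genes. Ifi203 was matched by 0 probes and was not analysed here for expression. No measured value entered this matching of probes to symbols, but the 5 genes were chosen with earlier results of these data known.

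RNA came from L929 cells, a fibroblast line derived from C3H mouse connective tissue, and from L929 cells that ectopically express IRF8 (L929IRF8), a transcription factor normally found in immune cells. The 4 groups were L929IRF8 with IFNβ, L929IRF8 untreated, L929 with IFNβ and L929 untreated, where IFNβ means 1000 U/ml for 4 h, and each held 2 independent replicates per the labels. The labels do not give the vector or promoter of the ectopic IRF8, whether L929IRF8 is 1 clone, or whether the L929 cells carry an empty vector. Each replicate was hybridised to an Illumina mouse bead array, and values are background-subtracted linear intensities, which have no unit beyond the scanner's.

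Of 14 fibroblast markers on the array, 11 lay above background in the mean over the 8 arrays, and Lox, Postn and Thy1 were under it on every array. Summed fibroblast marker intensity was 35074.4 to 37414 in L929IRF8 with IFNβ, 36155.9 to 36716.7 in untreated L929IRF8, 36741.1 to 36839.2 in L929 with IFNβ and 38196.3 to 39470.2 in untreated L929. Within that list Pdgfra, a growth factor receptor, fell with IFNβ in L929IRF8 (103.4 and 112, against 235.3 and 213.5 untreated, 2.08-fold, limma adjusted p = 0.0239), a call lost in 8 of 16 alternatives. The leukocyte marker Ptprc and the myeloid Itgam and Spi1 were under background on all 8 arrays, as were 10 of 13 myeloid and 9 of 9 lymphoid markers. Cd14 was above background on every array, at 71.7 to 159.1, and Lyz2 read 18.3 to 44.5. Adgre1 passed as higher with IFNβ in L929 (limma adjusted p = 0.0110, lost in 3 of 15 alternatives) although all its arrays were under background (7 and 8.9 with IFNβ, against -5.4 and -1 untreated). The summed myeloid markers were 179.8 to 217.3 in L929IRF8 with IFNβ, 165.7 to 224.3 in untreated L929IRF8, 157 to 225.9 in L929 with IFNβ and 139.3 to 190 in untreated L929, and their part in the results was not tested. The Irf8 probe read between -2.3 and 7.8 on the 8 arrays, under background in L929IRF8 too, so the name L929IRF8 rests on the labels. Arrays of 1 group correlated at 0.989 to 0.991 in log2 values. Background is taken here as 23.7 intensity units, the size of the lowest deposited value, and where neither array of a group exceeds it the level is an upper limit and the fold a lower bound ("at least"). Each fold is a ratio of geometric means with lower values raised to that bound. Intensities of different probes are not compared with each other.

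DNA in the cytosol is read by the cell as a sign of infection or damage. Aim2 binds such DNA and builds an inflammasome with the adaptor Asc (gene Pycard) and caspase-1, Ifi204 and its human counterpart IFI16 feed the STING pathway toward interferon, and Trex1 degrades the DNA before sensors meet it. Loss of TREX1 in people causes Aicardi-Goutières syndrome, an inflammatory disease with constant interferon production. Many of these genes are themselves induced by interferon.

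Trex1 had the most secure response to IFNβ among these genes, and both of its probes rose in both lines. Its probe ILMN_2509737 read 535.6 and 645.7 in L929IRF8 with IFNβ, against 66.5 and 70.3 in untreated L929IRF8. In L929 the same probe read 545.7 and 573.3 with IFNβ, against 58.7 and 79 without. All treated arrays lay far above all untreated arrays, and the lines interleaved within each treatment. The rise was 8.60-fold in L929IRF8 (log2 2.84 ± 0.15 SE, limma adjusted p = 0.00529) and 8.21-fold in L929 (2.77 ± 0.15, limma adjusted p = 0.00446). Each call was lost in 1 of 16 alternatives, the fit of the compared arrays alone (adjusted p = 0.117 in L929IRF8 and 0.115 in L929). Among probes above background on all 4 arrays compared, this rise ranked 46 of 10382 in L929IRF8 and 57 of 10434 in L929.

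The other Trex1 probe, ILMN_3131766, read 250.4 and 333.8 in L929IRF8 with IFNβ and 40.8 and 30.1 in untreated L929IRF8. In L929 it read 295.5 and 343.4 with IFNβ and 34.5 and 23.8 without, the last of these barely above background. Again the treated arrays did not overlap the untreated ones. The rise was 8.25-fold in L929IRF8 (log2 2.58 ± 0.21 SE, limma adjusted p = 0.0175) and 11.1-fold in L929 (2.90 ± 0.21, limma adjusted p = 0.0106). The L929IRF8 call depended on the setting of the fit: it was lost in 8 of 16 alternatives, with adjusted p between 0.000265 and 0.203 over them. The replicate block was among the 8 (limma adjusted p = 0.0525). The L929 call was lost in 2 of 16, among them leaving out L929 IFNβ replicate 2 (adjusted p = 0.0553).

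Ordered by the mean of ILMN_2509737, the groups ran from L929IRF8 with IFNβ (591 ± 77.9, SD, n = 2) and L929 with IFNβ (559.5 ± 19.5) to L929 untreated (68.85 ± 14.4) and L929IRF8 untreated (68.4 ± 2.69). The first pair differed by less than the spread of its arrays, and so did the last pair. After IFNβ, L929IRF8 over L929 was 0.07 on the log2 scale (95% interval -0.31 to 0.46), and in untreated cells it was 0.002 (-0.38 to 0.39). These intervals are not adjusted for the number of probes, so with 2 arrays a group differences larger than these can also fail to pass.

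**Figure D1:**
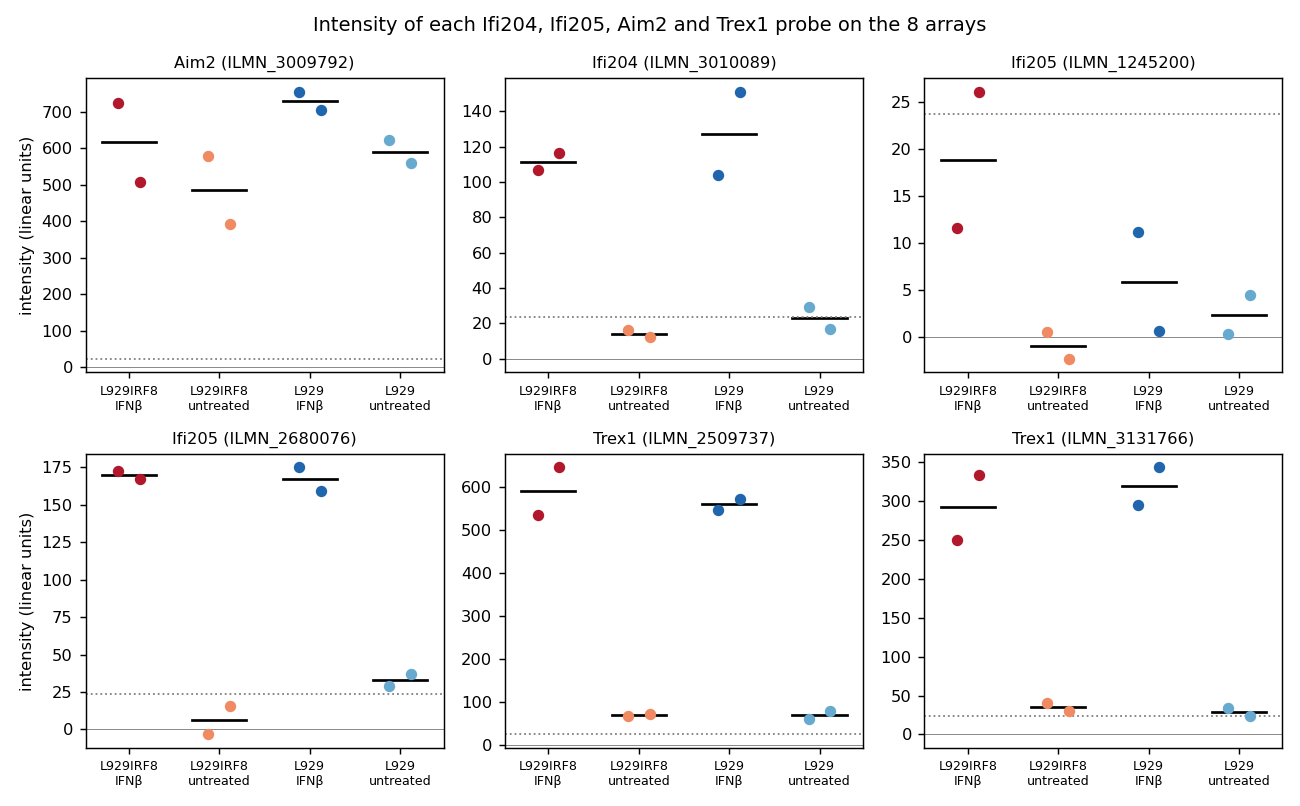
Intensity (linear units) of each Aim2, Ifi204, Ifi205 and Trex1 probe on the 8 arrays; points are arrays, bars are group means, and the dotted line is the background bound of 23.7. Both Trex1 probes, Ifi204 and the Ifi205 probe ILMN_2680076 separate IFNβ-treated from untreated arrays in both lines, whereas Aim2 sits between 393 and 754.5 throughout.

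Ifi205 is the Ifi200 gene at the end of the family's cluster on mouse chromosome 1, and it has been linked in mouse macrophages to expression of the Asc adaptor. Its probe ILMN_2680076 read 172.4 and 166.9 in L929IRF8 with IFNβ, against -3.3 and 15.8 in untreated L929IRF8. In L929 it read 174.9 and 159.5 with IFNβ, against 29.1 and 36.9 without. All 4 treated arrays lay within 159.5 to 174.9, and the untreated arrays were under background in L929IRF8 but just above it in L929. The rise in L929IRF8 was at least 7.16-fold (log2 3.04 ± 0.34 SE, limma adjusted p = 0.0404). In L929 it was 5.10-fold but missed the threshold (1.91 ± 0.34, limma adjusted p = 0.125). The L929IRF8 call was lost in 9 of 16 alternatives (adjusted p from 0.000743 to 0.322), and the L929 value passed in 5 of 16 (from 0.0102 to 0.45).

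The lines did not differ in Ifi205 after IFNβ beyond the spread of the arrays (L929IRF8 over L929, log2 0.02, 95% interval -0.86 to 0.90). Untreated L929IRF8 was at least 1.38-fold lower than untreated L929 (log2 -1.11 ± 0.34 SE). That difference had an interval of -2.00 to -0.23 but limma's adjusted p was 0.767, so it did not pass. Its size rests on untreated L929IRF8 arrays under background: it was -0.62 (adjusted p = 0.346) without L929IRF8 untreated replicate 1 and -1.61 (adjusted p = 0.0404) without replicate 2, and -2.05 and -0.44 with pseudocounts of 4 and 64. The IFNβ effect in L929IRF8 minus that in L929 was 1.13 ± 0.47 on the log2 scale (limma adjusted p = 1), with 2.07 and 0.46 at those pseudocounts and 0.64 to 1.63 with 1 array left out. The other Ifi205 probe, ILMN_1245200, was near or under background on every array: 11.6 and 26.1 in L929IRF8 with IFNβ, 0.5 and -2.3 in untreated L929IRF8, 11.2 and 0.6 in L929 with IFNβ, and 0.3 and 4.5 in untreated L929. It passed in no comparison (limma adjusted p = 0.375 for IFNβ in L929IRF8 and 0.988 in L929), so the rise of Ifi205 rests on 1 probe.

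The upstream sequences of Ifi205 and Aim2 are shown, a pair chosen after their values were seen. The Ifi205 probe ILMN_2680076 went with IFNβ, passing in L929IRF8 only, and the Aim2 probe did not pass. Both are RefSeq sequences on GRCm38.p6 (C57BL/6J, not the C3H strain of L929). They run 5′ to 3′ on the gene's strand and end at the base before the transcription start. The windows searched ran 250 bases before to 50 bases after each listed start, and entries existed for Ifi203, Ifi205, Aim2 and Trex1. Capitals mark the interferon-stimulated response element, searched on both strands as GAAA, any 2 bases, then GAAA.
Ifi205, chr1:174031756-174032005, minus strand: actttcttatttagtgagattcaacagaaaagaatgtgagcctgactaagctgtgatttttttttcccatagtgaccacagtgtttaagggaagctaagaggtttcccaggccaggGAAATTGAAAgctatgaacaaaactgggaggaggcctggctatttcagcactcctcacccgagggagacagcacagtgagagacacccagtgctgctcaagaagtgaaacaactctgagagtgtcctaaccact
Aim2, chr1:173420354-173420603, plus strand: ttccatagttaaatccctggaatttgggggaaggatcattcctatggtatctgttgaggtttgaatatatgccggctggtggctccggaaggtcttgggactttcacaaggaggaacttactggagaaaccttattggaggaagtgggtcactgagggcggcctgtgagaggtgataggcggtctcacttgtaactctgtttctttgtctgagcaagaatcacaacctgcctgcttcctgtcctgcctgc
The Ifi205 window held the element 134 bases upstream of the start on the gene's strand, and again 23 bases downstream on the opposite strand. The Aim2 window held no match to any of 6 motifs searched, and neither did the 2 Trex1 windows on chromosome 9. The interferon-stimulated response element was found in 3.44% of all 32851 promoter windows. The other motifs were GAAA, any 2 bases, then GGAA (2.8%), and the same parts in the other order, GGAA, any 2 bases, then GAAA (2.72%). The rest were the STAT palindrome TTCNNNGAA (8.3%), its strict form TTCCNGGAA (1.15%) and TATAAA (13.6%). Every match to the strict palindrome is also 1 to the wider form. A match or its absence describes only these stretches of reference sequence.

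The same element stands in related sequence upstream of other genes of the cluster, and 30-base stretches around it are given to show which are alike. Capitals mark the element or the aligned bases.
Ifi205, chr1:174031870-174031899, minus strand: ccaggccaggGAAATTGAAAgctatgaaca
Ifi203, chr1:173942508-173942537, minus strand: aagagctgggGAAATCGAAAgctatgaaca
Ifi214, chr1:173536017-173536046, minus strand: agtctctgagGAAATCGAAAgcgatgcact
Ifi209, chr1:173630770-173630799, plus strand: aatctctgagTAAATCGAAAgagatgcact
The stretches of Ifi205 and Ifi203, the member without a probe, shared 23 of 30 bases, those of Ifi203 and Ifi214 shared 22, and those of Ifi214 and Ifi209 shared 27. Ifi203 and Ifi209 shared 21, and Ifi205 shared 18 with Ifi214 and 16 with Ifi209, and the fixed bases of the element are part of these counts where both stretches hold it. Between Ifi214 and Ifi209 the capitals differ by G1T, counted from the first capital, so that Ifi209 does not hold the motif there. The Ifi209 stretch was chosen after its probe's values were seen. In Ifi203 the element lies 35 bases upstream of the second listed start, and in Ifi214 it lies 79 bases upstream.

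**Figure D2:**
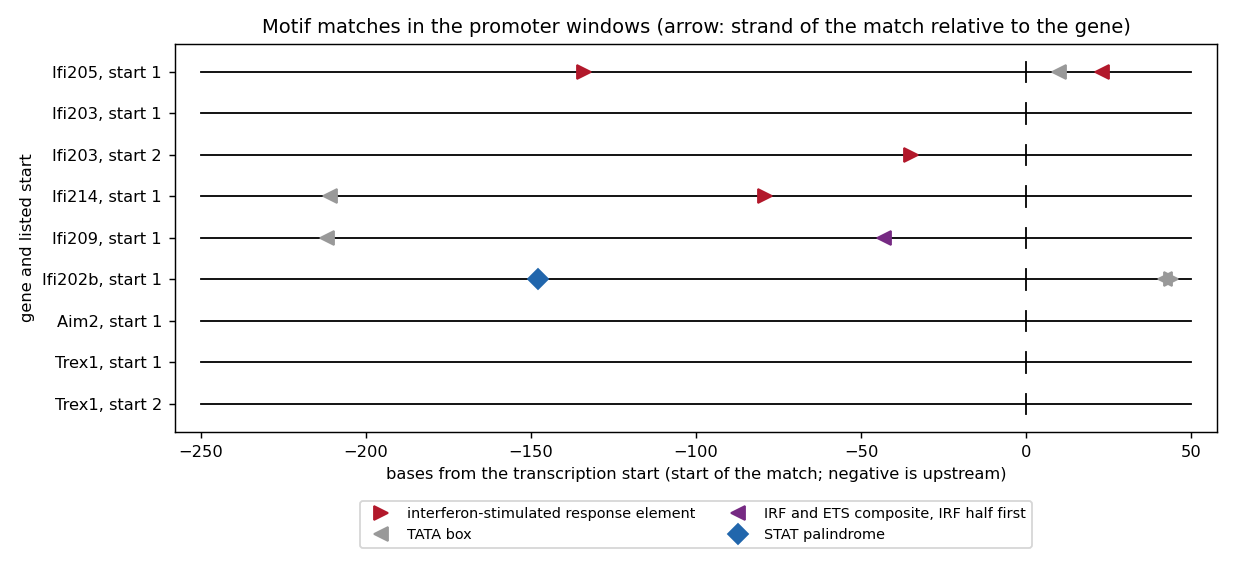
Positions of motif matches in the promoter windows of Ifi205, Ifi203, Ifi214, Ifi209, Ifi202b, Aim2 and Trex1, in bases from the transcription start (negative is upstream); arrow heads give the strand of the match and the diamond a palindrome. Ifi205, Ifi203 and Ifi214 hold the interferon-stimulated response element upstream of a start at 134, 35 and 79 bases, and the Aim2 and Trex1 windows hold no match. The Ifi209 and Ifi202b windows hold other motifs but not this element.

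Ifi204, the mouse protein most often set beside human IFI16 as a DNA sensor upstream of STING, was dim without IFNβ and moderate with it. Its probe ILMN_3010089 read 106.6 and 116.3 in L929IRF8 with IFNβ, against 16.2 and 12 in untreated L929IRF8. In L929 it read 103.8 and 151.1 with IFNβ, against 29 and 17 without. Treated and untreated arrays did not overlap, and the lines did overlap after treatment. It rose at least 4.70-fold in L929IRF8 (log2 2.08 ± 0.23 SE, limma adjusted p = 0.0398). It also rose in L929 (1.88 ± 0.23, limma adjusted p = 0.0470), where no fold is given because 1 untreated array was under background. Both calls lie close to the threshold and are fragile: the L929IRF8 call was lost in 12 of 16 alternatives (adjusted p from 0.00127 to 0.123) and the L929 call in 13 of 16 (from 0.00209 to 0.285). L929IRF8 over L929 was -0.15 after IFNβ (95% interval -0.75 to 0.45) and -0.36 untreated (-0.96 to 0.24) on the log2 scale.

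Aim2 was well above background in untreated cells of both lines, unlike Ifi204 and Ifi205. Its probe ILMN_3009792 read 724.3 and 508.2 in L929IRF8 with IFNβ, against 579.8 and 393 in untreated L929IRF8. In L929 it read 754.5 and 704.5 with IFNβ, against 621.9 and 558.7 without. The L929IRF8 arrays of the 2 treatments overlapped, and those of L929 did not. Between same-numbered arrays the log2 change with IFNβ was 0.31 and 0.36 in L929IRF8, and 0.27 and 0.33 in L929. With a replicate block the SE was 0.15 in each line, and neither passed (limma adjusted p = 0.509 in L929IRF8 and 0.578 in L929). IFNβ over untreated was 1.27-fold in L929IRF8 (log2 0.34 ± 0.25 SE, 95% interval -0.32 to 0.99, limma adjusted p = 0.792) and 1.24-fold in L929 (0.30 ± 0.25, -0.35 to 0.95, limma adjusted p = 0.829). The upper ends of these intervals lie below the fitted changes of Ifi204 and both Trex1 probes, a comparison that was not itself tested. Group means ran from L929 with IFNβ (729.5 ± 35.4, SD, n = 2) through L929IRF8 with IFNβ (616 ± 153) and L929 untreated (590.3 ± 44.7) to L929IRF8 untreated (486 ± 132), and neighbours in that order differed by less than the spread of the L929IRF8 arrays. L929IRF8 was 1.20-fold lower than L929 after IFNβ and 1.23-fold lower untreated, and neither difference passed. Aim2 passed in none of the alternatives for any comparison.

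Counted together, 4 of the 6 probes rose in L929IRF8, where 0.864% of all probes rose and 0.21% fell, and 3 of 6 rose in L929, where 0.996% rose and 0.28% fell. Their median log2 change was 2.33 in L929IRF8 and 1.89 in L929, against 0.00 and -0.00377 over all probes. No probe of these genes fell. Between L929IRF8 and L929, 0 of 6 passed after IFNβ (0.00389% of all probes) and 0 of 6 untreated (0.0156%). The difference between the lines' IFNβ effects passed for 0 of 6 (0.00389%). At an unadjusted p under 0.05 limma gave 1283, 1419 and 1226 of all 25697 probes in these 3 comparisons. A difference between the lines was therefore not detected for these genes. The intervals given at each are not adjusted for the number of probes and do not mark what size could have been called.

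**Figure D3:**
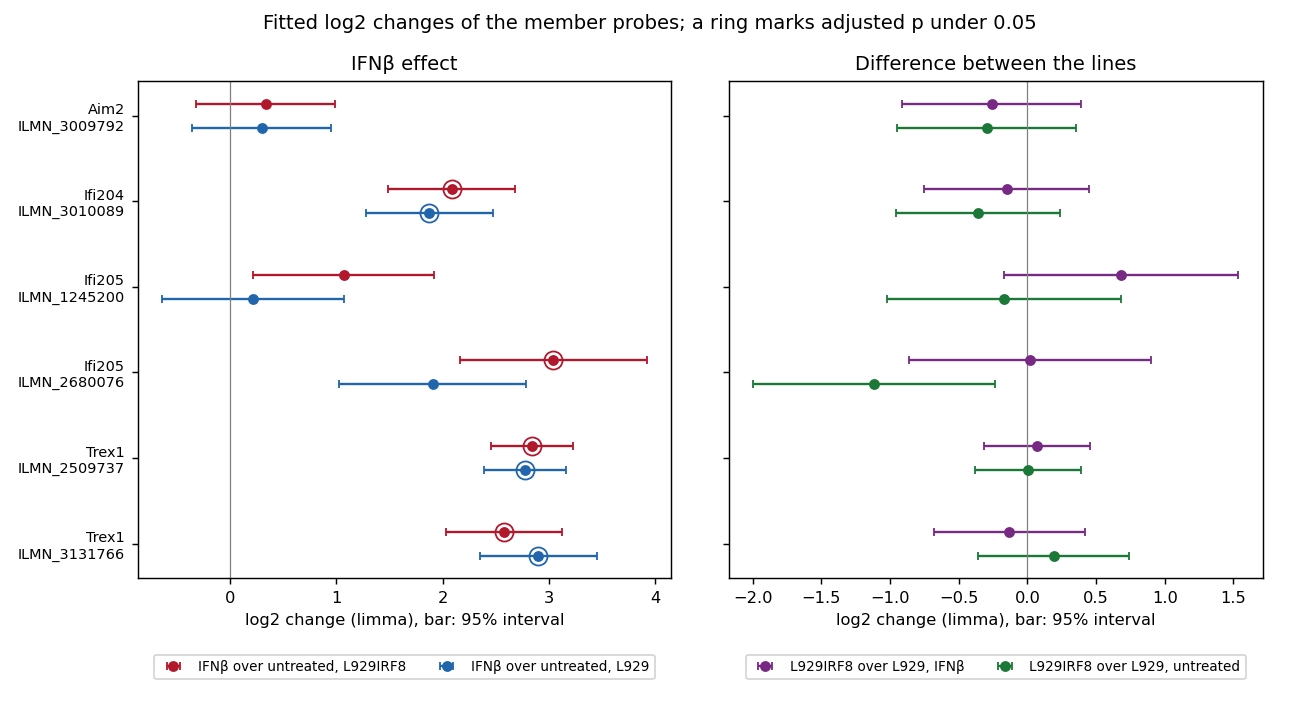
Fitted log2 changes of the 6 probes with 95% intervals (limma), for IFNβ over untreated in each line on the left and L929IRF8 over L929 at each treatment on the right; rings mark an adjusted p under 0.05. On the left 4 probes in L929IRF8 and 3 in L929 are ringed, and on the right none is.

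The RefSeq annotation places 13 protein-coding genes from Aim2 to Ifi205 on chromosome 1, all of the Ifi200 family, and 6 of these have a probe. The other family genes on the array were Ifi202b, Ifi214 and Ifi209. Ifi202b encodes a protein without a pyrin domain that dampens the Aim2 inflammasome and has been tied to lupus susceptibility in mice. Its probe ILMN_3014753 read 10090.5 and 8336.2 in L929IRF8 with IFNβ, 768.1 and 1204.1 in untreated L929IRF8, 9800 and 8989.5 in L929 with IFNβ, and 2019.6 and 1841.5 in untreated L929. It rose 9.54-fold in L929IRF8 (log2 3.23 ± 0.24 SE, limma adjusted p = 0.0128) and 4.87-fold in L929 (2.27 ± 0.24, limma adjusted p = 0.0309). These calls were lost in 5 and 9 of 16 alternatives. As with Ifi205, the treated arrays of the lines overlapped and the untreated L929IRF8 arrays lay below the untreated L929 arrays. The untreated difference was 2.01-fold lower in L929IRF8 (log2 -0.99 ± 0.24 SE, 95% interval -1.61 to -0.37), with a limma adjusted p of 0.623. The second Ifi202b probe, ILMN_3085992, read 5361.1 and 3670.5 in L929IRF8 with IFNβ, 685.9 and 941.3 in untreated L929IRF8, 5348.7 and 5100.7 in L929 with IFNβ and 1512.9 and 1278.7 in untreated L929. It gave 5.52-fold in L929IRF8 (limma adjusted p = 0.0313, lost in 10 of 16 alternatives), 3.76-fold in L929 without passing (adjusted p = 0.0575), and a 1.73-fold lower untreated level in L929IRF8 that did not pass (adjusted p = 0.788). The third, ILMN_2608350, was under background on all arrays.

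Ifi214 showed the steepest rise of the family's probes that passed. ILMN_3151243 read 758.2 and 527.4 in L929IRF8 with IFNβ, -6.6 and -5.1 in untreated L929IRF8, 654.5 and 471.9 in L929 with IFNβ, and 16 and 4 in untreated L929. Every untreated array was under background and every treated array far above it. The rise was at least 26.7-fold in L929IRF8 (limma adjusted p = 0.00725) and at least 23.4-fold in L929 (adjusted p = 0.0102). Its dimmer probe, ILMN_3072407, read 51 and 45.1 in L929IRF8 with IFNβ, against -7.4 and -2.3 untreated, and 36.8 and 19.5 in L929 with IFNβ, against -0.9 and 0 untreated. It rose at least 2.02-fold in L929IRF8 (limma adjusted p = 0.0279, lost in 9 of 15 alternatives), and in L929 its log2 change of 1.44 did not pass (adjusted p = 0.0617). Ifi209 was under background on all 8 arrays. The genes of this family are close relatives of each other, and no probe sequences were used here, so binding of a probe to transcripts of a relative cannot be told apart from its own signal.

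**Figure D4:**
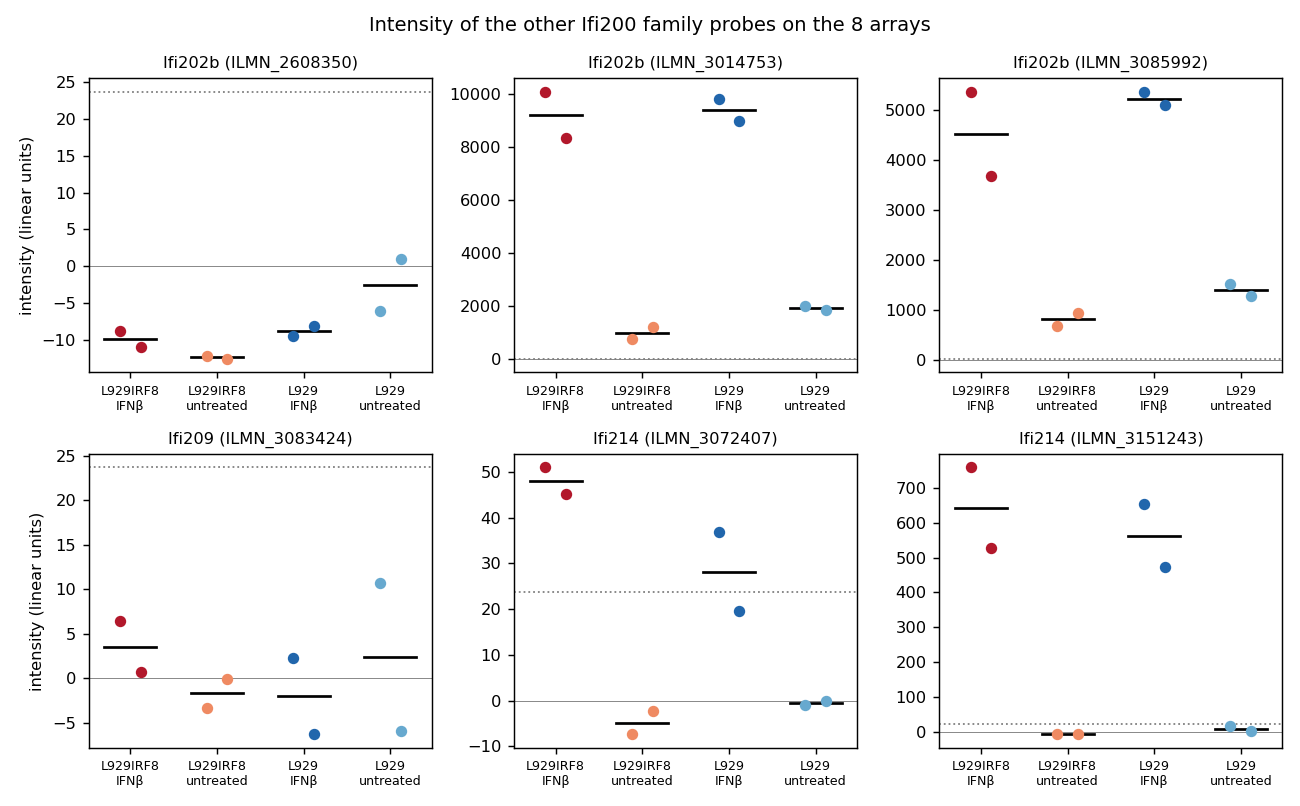
Intensity (linear units) of the Ifi202b, Ifi209 and Ifi214 probes on the 8 arrays; points are arrays, bars are group means, and the dotted line is the background bound of 23.7. The brighter Ifi202b and Ifi214 probes separate treated from untreated arrays, and ILMN_2608350 and the Ifi209 probe stay under the bound.

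The genes around the cluster and around Trex1 were also read. The 3 nearest protein-coding genes with a probe on each side of the Ifi200 cluster (Olfr418, Ackr1 and Cadm3; Olfr433, Olfr432 and Olfr430) were under background on all 8 arrays. Beside Trex1 on chromosome 9, the probe of Shisa5, which encodes an endoplasmic reticulum membrane protein, read 6039.5 and 3710.7 in L929IRF8 with IFNβ, against 2264.8 and 1705.2 in untreated L929IRF8. In L929 it read 5651 and 3767.5 with IFNβ, against 2011.6 and 1752.7 without. Its treated and untreated arrays did not overlap, but the replicates were far apart, with replicate 1 above replicate 2 in each of the 4 groups. Without a replicate block neither 2.41-fold in L929IRF8 (limma adjusted p = 0.296) nor 2.46-fold in L929 (adjusted p = 0.278) passed. A fit of Shisa5 with the block is not given here. Atrip, whose annotated span covers 227 of the 300 bases of the first Trex1 window, read 119.4 and 100.9 in L929IRF8 with IFNβ, against 131.4 and 82.6 untreated, and 123.2 and 88.4 in L929 with IFNβ, against 113.4 and 105.7 untreated. Its treated and untreated arrays overlapped in both lines. Col7a1, Pfkfb4, Tma7 and Ccdc51, the other neighbours, did not pass in either line.

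By Pearson correlation of log2 values over the 8 arrays, among 7688 genes above background, the gene most like Trex1 was Trafd1 (0.997), followed by Slfn2, Irf9, Nrap and Apobec1 (0.995). For Ifi205 it was Ifi202b (0.992), followed by Tent4a, Nab1, Azi2 and Ddx24. For Ifi204 it was Gm4951 (0.995), followed by Casp8, Irf1, Samd9l and Ddx58. The list for Aim2 began lower, with Ifi27 (0.954), Ankrd6, Slit2, Tlr6 and Rhbdd1. These are descriptions over arrays that share a normalization and fall into treated and untreated sets.

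The list of DNA sensing genes took in cGAS, STING and its kinases and also genes outside that route, such as Tlr9. Of its 20 genes, 18 were on the array, and 14 of these lay above background in the mean over the 8 arrays. Sting1, which encodes STING, and Tlr9 were not found on the array, so STING itself has no values here. Irf7, the transcription factor that amplifies interferon production, was the 1 that rose in each line and none fell. With 1 probe a gene, 0.922% of all genes rose and 0.253% fell in L929IRF8, and 1.09% rose and 0.319% fell in L929. It read 434.4 and 395.4 in L929IRF8 with IFNβ and 736.3 and 440.9 in L929 with IFNβ, and was under background in both untreated groups. That is at least 17.5-fold in L929IRF8 (limma adjusted p = 0.00732) and at least 24.0-fold in L929 (adjusted p = 0.00583). Cgas itself, the enzyme that makes the STING ligand, lay at 8.5 to 24.7 on the 8 arrays, around the background bound. Trim56 gave 2.63-fold in L929IRF8 and 3.54-fold in L929 without passing (limma adjusted p = 0.164 and 0.081). Unc93b1 and Zbp1 did not pass either. Unc93b1 read 385.8 and 141.7 in L929IRF8 with IFNβ, against 81.4 and 26.3 untreated, and 345.7 and 161.4 in L929 with IFNβ, against 61.3 and 55.5. Zbp1 read 169.9 and 103.4 in L929IRF8 with IFNβ, against 62.3 and 53.3, and 256.8 and 135.1 in L929 with IFNβ, against 56.1 and 65.5. In each line 9 of the 18 had a positive log2 change. The list's median log2 change was 0.00 in L929IRF8 and 0.02 in L929, against -0.01 and -0.01 over all genes.

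Of the inflammasome partners of Aim2, 11 of 13 were on the array, and 1 rose in L929IRF8 (0.922% of all genes rose) and 3 in L929 (1.09%). Casp4, the mouse caspase-11 that senses lipopolysaccharide, read 3074.5 and 3366.1 in L929IRF8 with IFNβ, against 870.8 and 832.1 untreated, a 3.78-fold rise (limma adjusted p = 0.00437). In L929 it read 2584.4 and 2976 with IFNβ, against 544.5 and 592.7 untreated, a 4.88-fold rise (adjusted p = 0.00212). Gsdmd, the pore-forming substrate of these caspases, rose 2.88-fold in L929 (limma adjusted p = 0.0316) and gave 2.32-fold in L929IRF8 without passing (adjusted p = 0.0672). Casp1 rose 2.09-fold in L929 (limma adjusted p = 0.0303) and gave 1.45-fold in L929IRF8 without passing (adjusted p = 0.180). In L929 the calls of Gsdmd and Casp1 were lost in 8 and 9 of 16 alternatives. The difference between the lines' effects on Casp1 did not pass either (log2 -0.53 ± 0.15 SE, adjusted p = 0.860). Il18, the cytokine that caspase-1 matures, read 804.3 and 309.8 in L929IRF8 with IFNβ and 691.5 and 348.5 in L929 with IFNβ, and was under background in both untreated groups. Its replicates were far apart and it missed the threshold (limma adjusted p = 0.0627 in L929IRF8 and 0.0567 in L929). Pycard, the adaptor that Aim2 needs for an inflammasome, read -2.3 to 7.7 on the 8 arrays, under background throughout, as did Il1b. Of the 11 on the array, 6 lay above background in the mean over the 8 arrays. The list's median over all 11 was 0.01 in L929IRF8 and 0.06 in L929 (log2).

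Trex1 is also 1 of the genes mutated in Aicardi-Goutières syndrome, and 5 of the 7 others listed were on the array. Of these, 3 rose in each line, against 0.922% of all genes in L929IRF8 and 1.09% in L929, and none fell, with a median log2 change of 1.70 in L929IRF8 and 2.06 in L929. Adar, which edits double-stranded RNA, read 1176.1 and 1006.9 in L929IRF8 with IFNβ, against 302.7 and 260.7 untreated, and 1181 and 1222 in L929 with IFNβ, against 208.6 and 223.5 untreated. It rose 3.87-fold in L929IRF8 (limma adjusted p = 0.00630) and 5.56-fold in L929 (adjusted p = 0.00263). Samhd1, a nucleotide triphosphatase that restricts viruses, rose 3.33-fold in L929IRF8 (limma adjusted p = 0.0223) and 4.27-fold in L929 (adjusted p = 0.0112). Ifih1, the RNA sensor Mda5, rose at least 2.38-fold in L929IRF8 (limma adjusted p = 0.00656) and at least 3.10-fold in L929 (adjusted p = 0.00382). Rnaseh2c and Lsm11 did not pass in either line.

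Of the other DNA nucleases, 17 of 18 were on the array, and 0 of 17 rose in L929IRF8 and 1 in L929, counts near the 0.922% and 1.09% of all genes. That 1 was Dnase1l3, whose probe was under background on all arrays (11.7 and 15.3 in L929 with IFNβ, against -1.3 and -5.7 untreated), so it has no fold, and its call was lost in 9 of 15 alternatives. Slx4, a scaffold of DNA repair nucleases, had the smallest p in L929IRF8 and gave 1.24-fold lower without passing (limma adjusted p = 0.261). Trex2, the close relative of Trex1, and the lysosomal Dnase2a did not pass. The 5 partners of Trex1 in the SET complex, a DNA-nicking assembly of the endoplasmic reticulum, gave 0 passing in each line. Of these partners 4 lay above background in the mean over the 8 arrays. The Set probe read -5.4 to 8.6, under background on all 8 arrays, so a response of Set could not be read. Apex1, the base excision repair nuclease among them, gave 1.18-fold lower in L929IRF8 (limma adjusted p = 0.340) and 1.21-fold lower in L929 (adjusted p = 0.276). Anp32a in L929IRF8 (limma adjusted p = 0.667) and Hmgb2 in L929 (adjusted p = 0.596) came next. With probes under background included, the medians were -0.03 in L929IRF8 and 0.00 in L929 for the nucleases, and -0.10 and -0.17 for the SET partners.

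**Figure D5:**
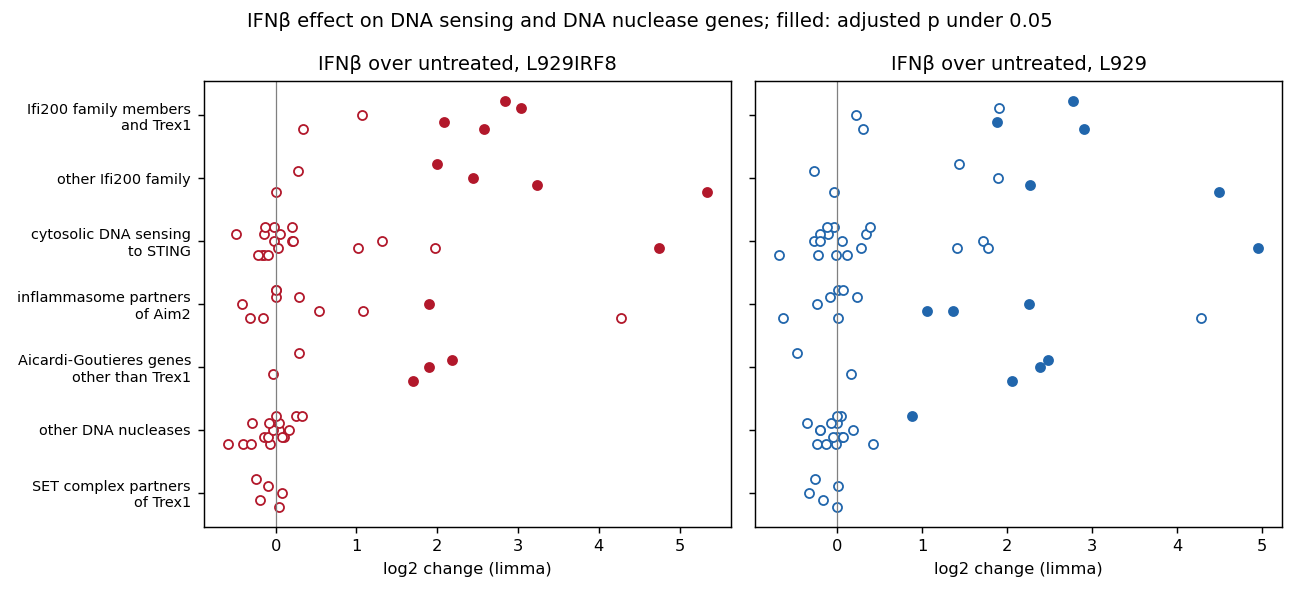
Fitted log2 changes (limma) for IFNβ over untreated in L929IRF8 (left) and L929 (right); each point is a probe in the top 2 rows and a gene by its brightest probe in the others, filled where the adjusted p is under 0.05. Filled points gather in the Ifi200 and Trex1 rows and in the Aicardi-Goutières row, and the nuclease and SET rows hold 1 filled point in all, Dnase1l3 in L929. The inflammasome row holds 1 filled point in L929IRF8 and 3 in L929, and the DNA sensing row holds 1 in each, Irf7.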

How the data were processed

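RNA of 8 samples was measured on Illumina bead arrays after biotin labelling, per the labels. The deposited values are linear intensity for 25697 probes. What the authors' processing tool was is not given in the sources used here, but 28.1% to 28.3% of values lie below 0 and the sorted arrays differ by at most 1.7 units, which is what background subtraction and quantile normalization leave, so the values were not normalized again. Such normalization hides a change shared by most genes. Negative values were set to 0, 16 was added and log2 taken, which understates changes of dim probes.

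All 8 arrays entered 1 unfiltered, unblocked limma 3.58.1 model (R 4.3.3) whose coefficients are the 4 group means. P-values were adjusted by Benjamini-Hochberg over the 25697 probes, and values under 0.05 were called. Residual degrees of freedom were 4, plus 0.684 from the prior. Permuting 2 arrays against 2 exactly gives a two-sided p of at least 0.333. P-values measure the spread between these arrays, whose number limits the precision; no slide or scan information was used. The scripts were tested on simulated data.

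Probes were named from the platform annotation: 23978 have 1 symbol, 0 have several and 1719 have none. Genes in lists were read by their brightest probe. The members, the lists and the alternatives were chosen with earlier results of these data known. Every probe of the members and of the other Ifi200 family genes is named, then up to 4 passing genes of each other list by size of change (or the 2 of smallest p), the 5 genes most alike, the 3 nearest genes on each side, and Irf8. Cgas, Trim56, Unc93b1, Zbp1, Il18, Il1b, Pycard, Rnaseh2c, Lsm11, Trex2, Dnase2a, Set, Lox, Postn, Thy1, Ptprc, Itgam, Spi1, Cd14 and Lyz2 lie outside this rule and were named after their values were seen. Sting1 and Tlr9 are named only as absent from the array. Alternatives were 2 other pseudocounts, raising values to background, a filter at background, an intensity trend in the prior, centring on the median of probes above background, a replicate block, fitting only the arrays compared, and leaving out each array. Promoter sequences are RefSeq's (GRCm38.p6).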

Additional observations from a re-analysis of the deposited data

How the results depend on the processing

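Of the 4 probes of Aim2, Ifi204, Ifi205 and Trex1 that rose with IFNβ in L929IRF8, 1 passed with a replicate block, 0 passed when only the arrays of the groups compared were fitted, and 1 to 2 passed when 1 array of any group was left out. In L929 the count of 3 became 0 with only the arrays compared, and 1 to 3 with 1 array left out (1 without L929 IFNβ replicate 2). With the block 2 passed in L929. Fitting only the compared arrays leaves 4 arrays behind each spread in place of 8. Between the untreated lines the count of 0 was 0 to 1 with 1 array left out, the 1 being Ifi205. The counts of 0 between the lines after IFNβ and for the difference of effects held in every alternative run. Same-numbered arrays deviated together (correlations 0.441 to 0.523 over 6 pairs of groups), and the unblocked main fit left this in its spread. The labels name no shared batch, so what these arrays have in common is not known.

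Every rise of Trex1, Ifi204, Ifi202b and Ifi214 with IFNβ kept its direction in all alternatives, as did that of the Ifi205 probe ILMN_2680076. The calls of Ifi214 ILMN_3151243, Irf7, Casp4 and Adar were lost in 1 of 16 alternatives in each line, the fit of the compared arrays alone. Those of Ifi202b ILMN_3014753 were lost in 5 in L929IRF8 and 9 in L929, of Samhd1 in 7 and 3, of Ifih1 in 2 and 2, of Ifi202b ILMN_3085992 in 10 in L929IRF8, and of Gsdmd in 8 and Casp1 in 9 in L929. The fitted log2 changes of dim probes move with the pseudocount or bound: over all alternatives Ifi205 ILMN_2680076 spanned 1.71 to 4.29 and Ifi204 1.17 to 2.68 in L929IRF8, and Ifi204 spanned 1.13 to 2.30 in L929. Signs that turned belong to values that passed nowhere. With 1 array left out, the IFNβ change in L929 was -0.14 to 0.57 for the Ifi205 probe ILMN_1245200 and -0.64 to 0.097 for Ifi209. L929IRF8 over L929 after IFNβ was -0.39 to 0.088 for Ifi204, -0.040 to 0.081 for Ifi205, -0.061 to 0.20 and -0.33 to 0.064 for the Trex1 probes ILMN_2509737 and ILMN_3131766, -0.17 to 0.10 and -0.51 to 0.037 for the Ifi202b probes ILMN_3014753 and ILMN_3085992, -0.035 to 0.39 for Ifi209 and -0.074 to 0.44 for Ifi214. In untreated cells it was -0.17 to 0.18 for Trex1 ILMN_2509737, and -0.00082 with a pseudocount of 64. The difference of IFNβ effects was -0.24 to 0.31 for Aim2, -0.032 to 0.45 for Ifi204 (-0.024 with values raised to background) and -0.11 to 0.24 for Trex1 ILMN_2509737. The cause was not tested.

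Over all probes, 276 passed in L929IRF8 and 328 in L929. These became 170 and 182 with values raised to background, 1 and 9 with only the arrays compared, and 135 to 526 and 217 to 469 with 1 array left out. The 1, 4 and 1 probes that passed between the lines after IFNβ, between the untreated lines and for the difference of effects became 23, 21 and 16 with a pseudocount of 4 and 19, 19 and 11 with an intensity trend. They became 0 each with the block or a filter at background, and 0 to 266, 0 to 264 and 0 to 142 with 1 array left out. With values raised to background the first became 6 and the last 8, and with a pseudocount of 64 the second became 0. For Ifi204, Ifi205 and Ifi214 in untreated L929IRF8, and Ifi214 in untreated L929, background leaves only a lower bound on the fold. The same holds for Irf7 and Ifih1 in both lines.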
